A study of Mus musculus with 11 samples.

Results

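A group of 9 imprinted mouse genes was followed through differentiation of embryonic stem cells toward ventral hindbrain. They are H19, Igf2, Igf2r, Meg3, Rian, Mirg, Dlk1, Peg3 and Grb10, taken by symbol from a count table of 38197 genes. All 9 were in the table and passed the filter on low counts in every comparison. Over 3 days Peg3, Igf2 and H19 rose, Rian and Mirg fell, Grb10 rose at day 1 and fell at day 3, and Igf2r passed the test in no comparison.

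Imprinted genes are expressed from the maternal or from the paternal copy, under the control of DNA methylation marks set in the germ line. Many paternally expressed ones promote growth of the embryo (Igf2, Dlk1, Peg3), and many maternally expressed ones limit it or are noncoding (Igf2r, Grb10, H19, Meg3, Rian, Mirg). In embryonic stem cells they are often used to follow whether imprints and the noncoding RNAs that lie in imprinted clusters are kept. The measurements here are of total RNA of each gene, so they hold no information on the parental copy.

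The cells were E14, a wild type mouse stem cell line of strain 129, grown as a monolayer. All differentiating cultures received retinoic acid (RA) and SAG, an agonist of the hedgehog transducer Smoothened, within the first 3 days of differentiation. The groups were unsorted cells at day 0 (stem cells), day 1, day 2 and day 3, with 2 libraries each, and neural progenitors sorted for the surface protein Prominin-1, with 3 libraries. The sorted libraries are called day 3.5 in their titles and 3 days in another label, and their column names carry another code prefix than those of the 8 unsorted libraries. Sort, time and code prefix therefore cannot be told apart in comparisons of sorted libraries with day 3. Whether the libraries of 1 group came from separate cultures is left unsaid in the labels, so p-values measure only the spread between these libraries, which may be technical.

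Polyadenylated RNA was sequenced, and library totals were 13173674 to 17113430 counts for the sorted libraries and 26136331 to 30384599 counts for the unsorted ones. Naive pluripotency markers summed to 799.5 and 1288 CPM (counts scaled to the size of the library, with TMM factors) at day 0, to between 33.4 and 187 CPM over days 1 to 3, and to 11.2 to 15.2 CPM in sorted libraries. Neural progenitor markers summed to 4003 to 4154 CPM in sorted libraries, to 3500 and 3075 CPM at day 3 and to 582 to 822 CPM over days 0 and 1. Of 13, 12 were higher and none lower at day 3 than at day 0. Neuron markers summed to 2316, 1701 and 1493 CPM in sorted libraries and to 1743 and 1473 CPM at day 3. In sorted cells against day 3, 1 of 13 progenitor markers was higher and none lower, and 0 of 15 neuron markers were called. There 0.435% of all genes were higher and 2.93% lower. Neuron markers (13 of 15 higher, 1 lower), mesoderm markers (4 of 11 higher, 3 lower) and trophoblast markers (5 of 9 higher, 1 lower) were also counted at day 3 against day 0, where 27.6% of all genes were higher and 26.3% lower; the mesoderm counts are near those shares. RNA came from whole cultures or from pools of sorted cells, so fewer cells of a type and less RNA per cell cannot be told apart.

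The 9 genes lie in 5 regions of the genome (GRCm38, GENCODE M21). H19 (ENSMUSG00000000031.16, chr7:142575529-142578143, minus strand) and Igf2 (chr7:142650766-142666816, minus strand) are 72622 bp apart. The Dlk1-Dio3 cluster holds Dlk1 (chr12:109452823-109463336), Meg3 (chr12:109541001-109571726), Rian (chr12:109603940-109661716) and Mirg (chr12:109729764-109749460), all on the plus strand, with 77664 bp between Dlk1 and Meg3, 32213 bp between Meg3 and Rian and 68047 bp between Rian and Mirg. Peg3 is at chr7:6703892-6730431, Grb10 at chr11:11930508-12038683 and Igf2r at chr17:12682406-12769664, each on the minus strand.

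The noncoding members are also the hosts of small RNAs. Positions of mature miRNAs were from RefSeq (GRCm38.p6), and exons (of any transcript) and genes inside a host from GENCODE M21. The H19 exons hold miR-675, Meg3 exons hold miR-770 and miR-1906, and miR-370, miR-341 and miR-1188 lie in introns of Rian. Rian also covers 13 snoRNA genes, and Mirg covers 14 miRNA genes. A mature miRNA pairs with target RNAs mainly through its seed, bases 2 to 8, shown in capitals in these sequences of the hosted miRNAs, which are printed to show what each host transcript carries:
miR-675-5p (H19): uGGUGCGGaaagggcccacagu
miR-675-3p (H19): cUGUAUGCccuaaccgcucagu
miR-770-5p (Meg3): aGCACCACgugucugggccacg
miR-370-3p (Rian): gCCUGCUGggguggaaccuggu
miR-134-5p (Mirg): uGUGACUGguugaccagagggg
miR-410-3p (Mirg): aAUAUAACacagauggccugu
miR-453 (Mirg): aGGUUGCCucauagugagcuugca
miR-496a-5p (Mirg): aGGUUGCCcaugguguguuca
Of the hosted mature miRNAs, only miR-453 and miR-496a-5p shared a seed, GGUUGCC. The count table has entries of its own for some of these miRNA genes. Mir675, Mir770, Mir370, Mir134, Mir154 and Mir410 had 0 counts in all 11 libraries, Mir483 of Igf2 had 0 to 3 counts and Mir341 0 or 1. Libraries selected for polyadenylated RNA do not measure mature miRNAs, so the values below are of the host transcripts.

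Promoter windows from 250 bases before to 50 bases after a start were found in RefSeq for 8 of the 9 genes, 13 windows in all; H19 had no window and its promoter was not analysed here. They were searched on both strands for the core motif of retinoic acid receptors (AGGTCA), the core of the GLI site of hedgehog signaling (ACCACCC) and the core of the YY1 site (CCATNTT). The receptor motif was in 3 of 13 windows and in 16.3% of 32851 mouse promoter windows, the GLI core in 3 of 13 and in 4.61%, and the YY1 core in 2 of 13 and in 16.1%. Windows of 1 gene are not independent, and a match describes letters, not a bound site. Peg3, the gene with the largest rise, had none of the 3 motifs in its window. GLI cores were only in windows of Meg3 and Grb10. The window of the first Meg3 start had the GLI core 46 bases before the start, and that of a second Meg3 start 226 bases before it. The window of a second Grb10 start had it 247 bases before the start, with a YY1 core 203 bases before the start. The windows of Peg3, of the first Meg3 start and of this Grb10 start are printed 5′ to 3′ in the direction of the gene, with matches in capitals:
Peg3 chr7:6730370-6730669, minus strand, GRCm38.p6: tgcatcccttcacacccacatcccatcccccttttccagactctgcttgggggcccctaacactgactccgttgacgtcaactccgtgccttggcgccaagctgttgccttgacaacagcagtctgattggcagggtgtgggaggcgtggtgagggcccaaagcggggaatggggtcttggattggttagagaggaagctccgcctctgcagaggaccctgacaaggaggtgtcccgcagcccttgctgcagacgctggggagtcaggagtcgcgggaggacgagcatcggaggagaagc
Meg3 chr12:109540746-109541045, plus strand, GRCm38.p6: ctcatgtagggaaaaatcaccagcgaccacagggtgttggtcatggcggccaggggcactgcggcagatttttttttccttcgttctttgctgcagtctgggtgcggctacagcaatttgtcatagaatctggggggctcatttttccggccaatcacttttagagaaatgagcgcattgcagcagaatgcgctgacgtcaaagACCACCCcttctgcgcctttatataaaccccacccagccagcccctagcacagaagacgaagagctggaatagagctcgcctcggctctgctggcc
Grb10 chr11:12027922-12028221, minus strand, GRCm38.p6: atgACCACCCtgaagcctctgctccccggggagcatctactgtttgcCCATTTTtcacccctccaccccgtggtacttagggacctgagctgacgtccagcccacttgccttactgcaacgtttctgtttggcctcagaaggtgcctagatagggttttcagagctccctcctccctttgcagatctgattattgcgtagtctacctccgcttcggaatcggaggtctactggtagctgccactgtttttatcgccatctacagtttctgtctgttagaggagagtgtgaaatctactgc
Receptor motifs stood 11 bases before the start of Igf2r, 234 bases before an upstream start of Igf2 and 141 bases before a second start of Meg3.

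The 9 genes were tested between days with edgeR's quasi-likelihood test, with p-values adjusted (Benjamini-Hochberg) over all genes tested and a threshold of 0.05. At day 1 against day 0, 5 of 9 were called, 4 higher (H19, Igf2, Peg3, Grb10) and 1 lower (Meg3), where 20.9% of 16810 genes were called, 12% higher and 8.91% lower. At day 2 against day 1, 2 of 9 were called, both higher (Dlk1, Peg3), where 19.6% of genes were called, 9.65% higher and 9.99% lower. At day 3 against day 2, 1 of 9 was called, Grb10, lower, where 4.07% of genes were called, 2.81% higher and 1.26% lower. Over the whole span, day 3 against day 0, 5 of 9 were called, 3 higher (H19, Igf2, Peg3) and 2 lower (Rian, Mirg), close to the 53.9% of all genes called, 27.6% higher and 26.3% lower. A test of any change over days 0 to 3 called 7 of 9, all but Igf2r (adjusted p = 0.46 from edgeR) and Mirg (adjusted p = 0.0847 from edgeR), where 53.7% of genes were called. In sorted cells against day 3, 1 of 9 was called, Grb10, lower, where 3.37% of 17006 genes were called, 0.435% higher and 2.93% lower. The median log2 fold change of the 9 genes was -0.05, 0.31, 0.23 and 0.10 in the 4 comparisons of days 0 to 3, in the order given, and -0.10 in sorted cells against day 3, beside medians of all genes between -0.01 and 0.02.

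**Figure D1:**
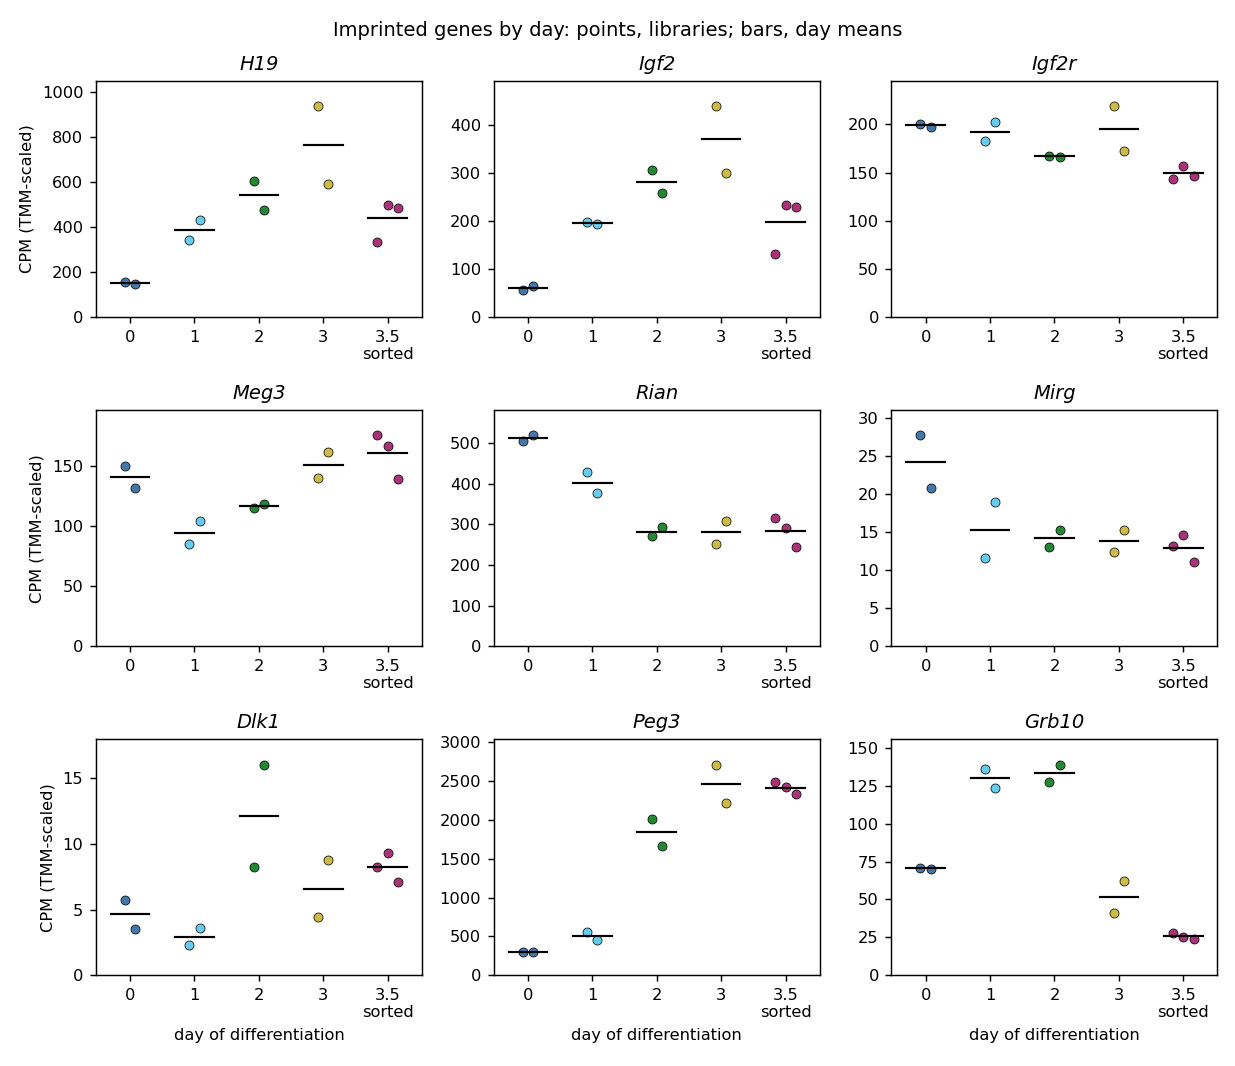
Level of each of the 9 genes (CPM, TMM-scaled, linear axis from 0) against day of differentiation; points are libraries and bars are day means. H19, Igf2 and Peg3 stand lowest at day 0, Rian and Mirg highest at day 0, and Grb10 is highest at days 1 and 2 and lowest in sorted libraries.

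**Figure D2:**
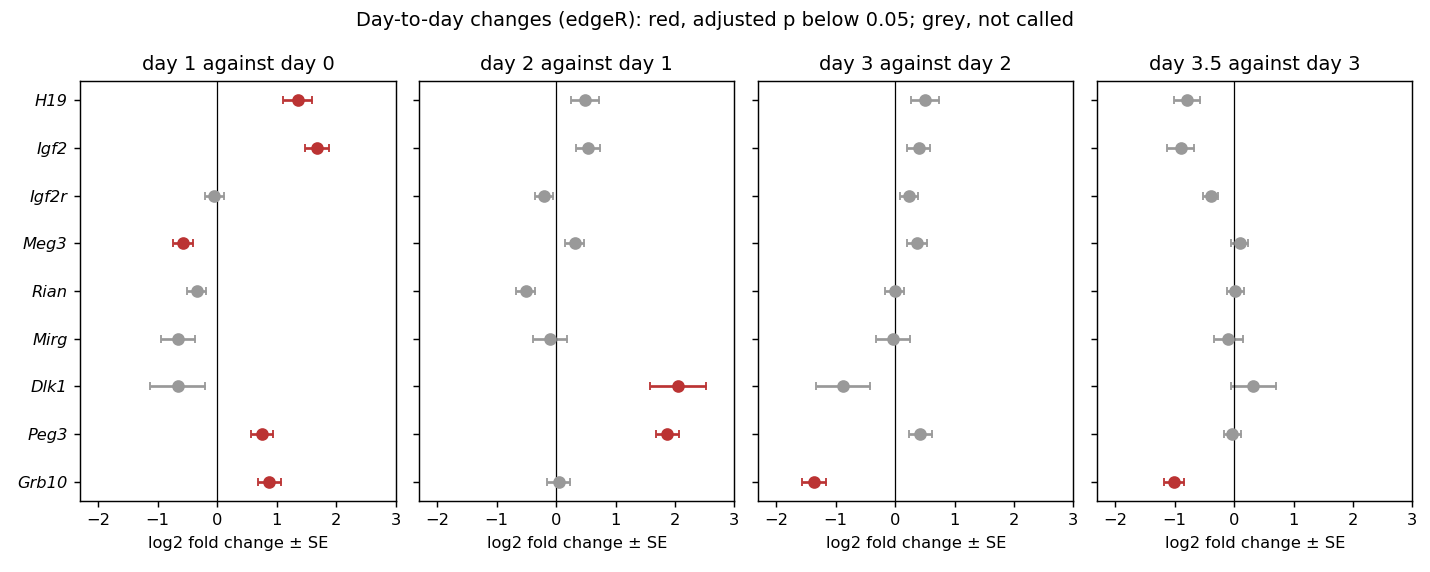
Log2 fold change with its standard error (edgeR) of each gene between successive groups; red points passed an adjusted p of 0.05 and grey points did not. H19, Igf2, Peg3 and Grb10 (higher) and Meg3 (lower) were called at day 1 against day 0, and Dlk1 and Peg3 at day 2 against day 1. Grb10 was called in 3 of the 4 steps shown.

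H19 is a maternally expressed noncoding RNA, abundant in embryonic endoderm and mesoderm and host of miR-675. It had 155 and 147 CPM at day 0, 344 and 429 CPM at day 1, 607 and 474 CPM at day 2, 936 and 589.5 CPM at day 3, and 335, 498 and 486 CPM in sorted libraries. The day 1 libraries stood above the day 0 ones, and days 2 and 3 overlapped, the 2 libraries of day 3 being far apart. H19 rose at day 1 against day 0 by a log2 fold change of 1.36 ± 0.24 (SE; adjusted p = 0.0054, edgeR), a 2.56-fold rise. At day 3 against day 0 the log2 fold change was 2.34 ± 0.25 (adjusted p = 7.99e-05, edgeR). The later steps did not pass the test, with 0.49 ± 0.24 at day 2 against day 1 (adjusted p = 0.174, edgeR) and 0.50 ± 0.24 at day 3 against day 2 (adjusted p = 0.273, edgeR).

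Igf2, the paternally expressed growth factor that shares enhancers with H19, followed nearly the same course. Its levels were 57.1 and 64.3 CPM at day 0, 197 and 193 CPM at day 1, 306 and 258 CPM at day 2, 439 and 301 CPM at day 3, and 131.5, 233 and 230.0 CPM in sorted libraries. Day 0 was below every other library, and sorted libraries were below both day 2 and day 3. Igf2 rose at day 1 against day 0 by 1.68 ± 0.20 on the log2 scale (SE; adjusted p = 0.00108, edgeR), and was higher at day 3 than at day 0 by 2.61 ± 0.21 (adjusted p = 1.7e-05, edgeR). At day 2 against day 1 it reached 0.53 ± 0.20 (adjusted p = 0.0863, edgeR; 0.0404 without a filter on low counts). Across the 11 libraries the log2 CPM of H19 and Igf2 had a Pearson r of 0.985, a description over libraries that share days. The number of H19 counts per Igf2 count lay between 1.75 and 2.72 in all libraries, with 2.72 and 2.28 at day 0 and 2.55, 2.14 and 2.11 in sorted libraries. The ratio of the deposited FPKM was less even: day 3 had 4.72 and 5.51, against 8.22 and 8.12 at day 0, and the sorted libraries had 6.10, 4.56 and 3.95.

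Sorted cells had less H19 and Igf2 than the day 3 cultures, but the differences did not pass the test. H19 differed by -0.80 ± 0.22 on the log2 scale (SE; adjusted p = 0.085, edgeR) and Igf2 by -0.90 ± 0.23 (adjusted p = 0.0618, edgeR), with no overlap between the groups for either gene. Library 1 of day 3 decided much of this: without it H19 differed by -0.43 (adjusted p = 0.707, edgeR) and Igf2 by -0.61 (adjusted p = 0.539, edgeR), and without library 2 of day 3 H19 differed by -1.09 (adjusted p = 0.038, edgeR). DESeq2 called both lower, H19 by -0.77 (adjusted p = 0.0288) and Igf2 by -0.87 (adjusted p = 0.0154).

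The summed level of markers of extraembryonic endoderm, a cell type rich in H19 and Igf2, moved with these values at the later days. Most of this sum came from matrix genes: Col4a1, Col4a2, Lama1, Lamb1 and Sparc had 2106, 963.6, 1632, 1086 and 1408 CPM in library 1 of day 3. The 19 markers summed to 2250 and 1667 CPM at day 0, 1475 and 1669 CPM at day 1, 4571 and 4100 CPM at day 2, 7494 and 4323 CPM at day 3, and 1057, 1376 and 1522 CPM in sorted libraries. Of the 18 tested, 1 was higher and 1 lower at day 1 against day 0 (20.9% of all genes called), and 9 were higher at day 2 against day 1 (9.65% of all genes). At day 3 against day 2, 0 were higher and 1 lower (2.81% and 1.26% of all genes). At day 3 against day 0, 9 were higher and 2 lower (27.6% and 26.3%). In sorted cells 15 were lower than at day 3 (2.93% of all genes). Cubn was at 167.7 and 181.6 CPM at day 0 and 95.96 and 98.24 CPM at day 3, and Sox7 at 13.08 and 11.47 and at 9.275 and 6.435 CPM. Dab2 rose from 59.41 and 62.42 to 102.8 and 87.81 CPM, and Sox17 from 3.976 and 3.168 to 8.678 and 5.395 CPM. Trophoblast marker sums had the same order of day means, with 502.6 and 287 CPM at day 3 and 70.9 to 186 CPM in sorted libraries. The sorted libraries overlapped day 0 (173 and 161 CPM) and day 1 (113 and 176 CPM). Most of this sum came from keratins: Krt18, Krt8 and Krt7 had 291, 133 and 54.1 CPM in library 1 of day 3. Tfap2c was at 23.5 and 26.1 CPM at day 0 and 17.3 and 10.6 CPM at day 3. Gata3 was at 1.67 and 1.54 CPM at day 0 and 3.49 and 4.71 CPM at day 3. The rise of H19 and Igf2 at day 1 took place at endoderm sums within or below the range of day 0. In sorted libraries H19 was at 335 to 498 CPM, above both libraries of day 0, and the endoderm markers were low but not all at 0. Of its transcription factors, Sox17 was at 0 to 0.299 CPM there, Hnf4a, low in every group, at 0 to 0.0598 CPM, Sox7 at 0.598 to 0.843 CPM, Gata4 at 0.538 to 1.75 CPM and Gata6 at 1.30 to 2.21 CPM. The endocytic adaptor Dab2 was at 31.2 to 36.0 CPM, and the matrix genes Lama1, Col4a1 and Sparc, which many other cells also express, were at 191 to 244, 252 to 496 and 340.3 to 429.7 CPM. The part of such cells in the levels of H19 and Igf2 at any day, sorted libraries included, was not tested.

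**Figure D3:**
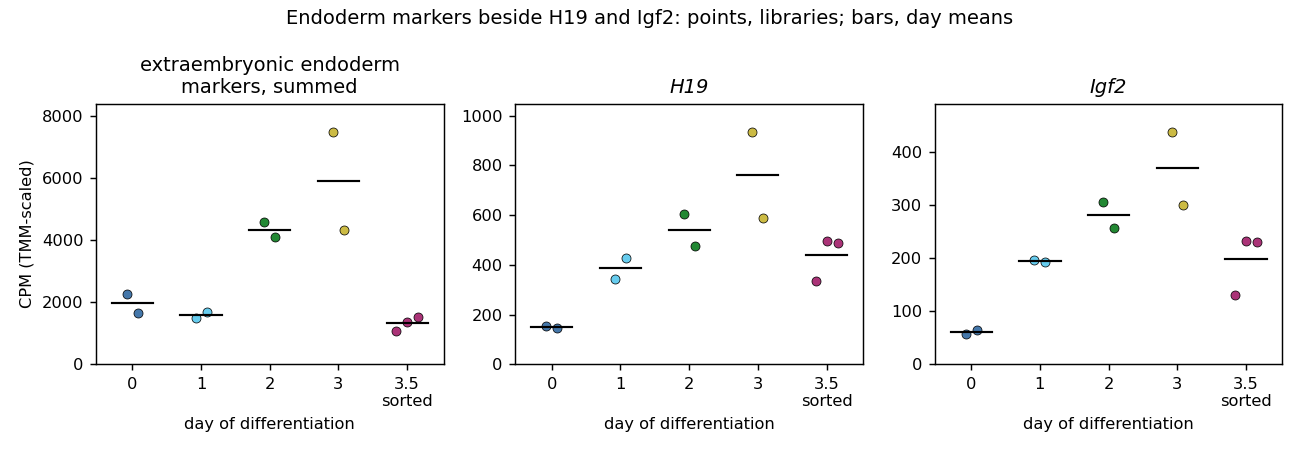
Summed level of 19 extraembryonic endoderm markers, and levels of H19 and Igf2 (all CPM, TMM-scaled), by day; points are libraries and bars are day means. Library 1 of day 3 is the highest in all 3 panels, and at day 1 H19 and Igf2 are up while the marker sum is not.

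Igf2r, the maternally expressed receptor that takes IGF2 to lysosomes for breakdown, changed little. It had 201 and 198 CPM at day 0, 183 and 203 CPM at day 1, 167 and 167 CPM at day 2, 219 and 172 CPM at day 3, and 144, 157 and 146 CPM in sorted libraries. No comparison called it, and the log2 fold change at day 3 against day 0 was -0.02 ± 0.16 (SE; adjusted p = 0.921, edgeR). Sorted libraries lay below all others, at -0.39 ± 0.12 against day 3 (adjusted p = 0.131, edgeR). Airn, the paternal noncoding RNA that runs antisense through 28354 bp of Igf2r, was higher at the end of these days: it had 11 and 6.79 CPM at day 3, against 0.918 and 0.771 CPM at day 0, a log2 fold change of 3.39 ± 0.42 (adjusted p = 0.000194, edgeR). No label or file header gives the counting strand, so reads of overlapping antisense genes cannot be told apart. That holds also for Igf2 and its antisense gene Igf2as, which had 7.29 and 6.53 CPM at day 1, against 0.918 and 1.76 CPM at day 0 (log2 fold change 2.38 ± 0.36; adjusted p = 0.00286, edgeR).

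Within a library there were 2.01 and 1.75 Igf2 counts per Igf2r count at day 3, against 0.285 and 0.325 at day 0. The sorted libraries had 0.915, 1.48 and 1.57.

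Among 16 other tested genes of the IGF system, 10 were higher and 3 lower at day 3 than at day 0, with a median log2 fold change of 1.54 beside 0.02 for all genes, of which 27.6% were higher and 26.3% lower. At day 1 against day 0 the count was 5 higher and 1 lower, where 20.9% of all genes were called, and at day 2 against day 1 it was 8 higher and 1 lower, where 19.6% were called. Irs1, an adaptor of the insulin and IGF1 receptors, averaged 122 ± 6.68 CPM at day 3 and 7.08 ± 0.16 CPM at day 0 (SD, n = 2 each; log2 fold change 4.11 ± 0.18). Igfbp5, a binding protein for IGFs, averaged 1618 ± 156 CPM at day 3 and 9.81 ± 3.69 CPM at day 0 (SD, n = 2 each). Pappa, a protease that cleaves IGF binding proteins, differed by 4.66 ± 0.40 on the log2 scale, and the receptors Igf1r and Insr by 2.43 ± 0.20 and 1.40 ± 0.18. Igfbp3 was lower by -1.64 ± 0.20. Igf2bp1, an RNA-binding protein that binds Igf2 mRNA, was at -0.25 ± 0.16 and was not called, while its relative Igf2bp2 was higher by 2.12 ± 0.17. In sorted cells against day 3, Igf1 was the only one of the 16 called, where 3.37% of all genes were called. Igf1 was at 1.08 ± 0.31 CPM in sorted cells (n = 3) and 6.34 ± 0.64 CPM at day 3 (SD, n = 2).

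Of the maternally expressed noncoding RNAs of the Dlk1-Dio3 cluster, Meg3 dipped and came back. It had 150.1 and 131.5 CPM at day 0, 84.7 and 104 CPM at day 1, 115 and 119 CPM at day 2, 139.7 and 161 CPM at day 3, and 175, 167 and 139.4 CPM in sorted libraries. Day 1 was lower than day 0 without overlap, and day 3 overlapped day 0. Gm26906, on the other strand, overlaps 3096 bp of Meg3, and without the counting strand its reads cannot be told apart from those of Meg3, in these levels or in the ratios to Meg3 given below. Meg3 fell at day 1 against day 0 by a log2 fold change of -0.57 ± 0.16 (SE; adjusted p = 0.0358, edgeR), and day 3 differed from day 0 by 0.10 ± 0.16 (adjusted p = 0.616, edgeR). The call at day 1 was lost without any 1 library other than library 2 of day 1 and library 1 of day 3, with adjusted p from edgeR between 0.0501 and 0.166, and with the deposited log2 or FPKM values.

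Rian, the host of snoRNAs downstream of Meg3, was highest at day 0, with 506 and 519 CPM. It had 429 and 378 CPM at day 1, 271 and 293 CPM at day 2, 253 and 308 CPM at day 3, and 317, 292 and 245 CPM in sorted libraries. Days 2, 3 and the sorted libraries overlapped, and all of them lay below day 1. Neither single step passed, at -0.35 ± 0.16 for day 1 against day 0 (adjusted p = 0.153, edgeR) and -0.51 ± 0.16 for day 2 against day 1 (adjusted p = 0.0512, edgeR). The second of these steps was called by DESeq2 (adjusted p = 0.044), by edgeR without a filter on low counts (0.0431), with all 11 libraries (0.0338) or without library 1 of day 3 (0.0499), and with the deposited log2 values (0.0213, limma). Over the span Rian fell, with a log2 fold change at day 3 against day 0 of -0.86 ± 0.16 (adjusted p = 0.00172, edgeR).

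Mirg, the host of the miRNA cluster, was the least counted of the noncoding members. Its levels were 27.7 and 20.8 CPM at day 0, 11.7 and 19 CPM at day 1, 13.1 and 15.3 CPM at day 2, 12.4 and 15.3 CPM at day 3, and 13.2, 14.6 and 11.03 CPM in sorted libraries. Both day 0 libraries were above all others. Mirg fell at day 3 against day 0 by a log2 fold change of -0.80 ± 0.29 (SE; adjusted p = 0.0389, edgeR). That call was lost without library 1 of day 0 (adjusted p = 0.173), library 1 or 2 of day 2 (0.0645 and 0.0637) and library 1 or 2 of day 3 (0.203 and 0.0746), all from edgeR, and with the deposited log2 or FPKM values. The test of any change called Mirg without library 1 or 2 of day 1 (adjusted p = 0.0438 and 0.0224, edgeR), with DESeq2 (0.0252), the GC offset, no filter or all 11 libraries.

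The proportions of the 3 noncoding RNAs of this cluster, which are read in the same direction along the chromosome, differed between days. A library had 1.81 and 1.91 Rian counts per Meg3 count at day 3, against 3.37 and 3.95 at day 0. Day 1 was not below day 0, at 5.06 and 3.62, and day 2 had 2.36 and 2.47. Sorted libraries, at 1.75 to 1.81, were close to day 3. Mirg counts per Meg3 count were 0.0887 and 0.0949 at day 3, against 0.185 and 0.158 at day 0. These ratios were not tested, and their groups at day 3 and day 0 did not overlap.

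**Figure D4:**
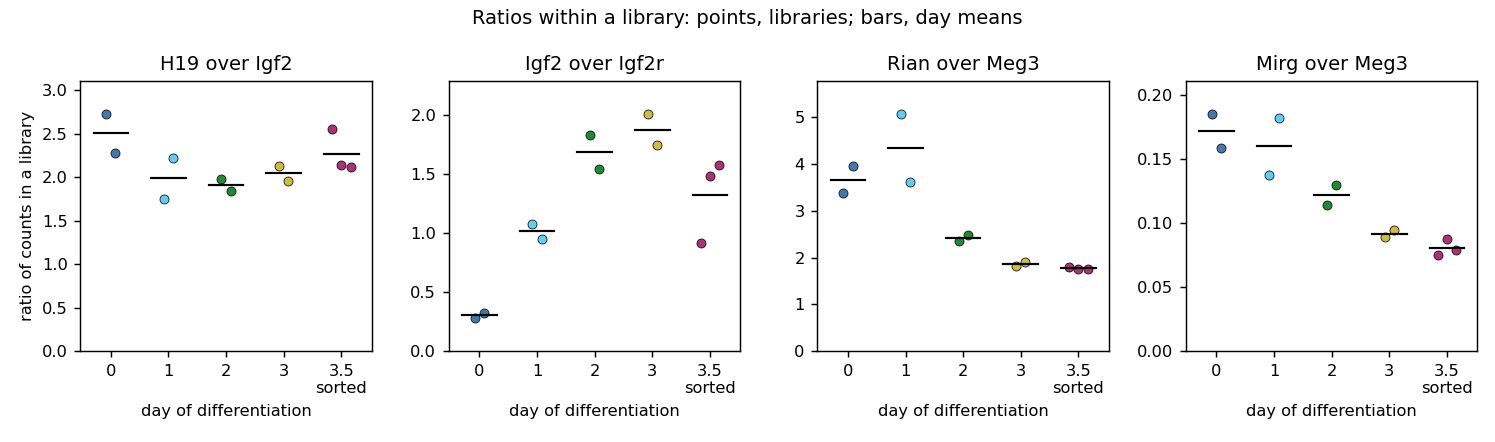
Ratio of the counts of 2 genes within a library (linear axis from 0) by day; points are libraries and bars are day means. H19 over Igf2 stays between 1.75 and 2.72, Igf2 over Igf2r is lowest at day 0, and Rian over Meg3 and Mirg over Meg3 are lower at day 3 and in sorted libraries than at day 0.

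Dlk1, the paternally expressed Notch-like ligand at the other end of the cluster, was low throughout. It had 5.74 and 3.55 CPM at day 0, 2.31 and 3.56 CPM at day 1, 8.21 and 16.03 CPM at day 2, 4.43 and 8.74 CPM at day 3, and 8.25, 9.34 and 7.13 CPM in sorted libraries. The 2 libraries of day 2 were far apart, and of successive groups only day 1 and day 2 did not overlap. Dlk1 rose at day 2 against day 1 by a log2 fold change of 2.04 ± 0.47 (SE; adjusted p = 0.0167, edgeR). The call was lost without library 1 of day 1 (adjusted p = 0.0845, edgeR) or library 2 of day 2 (adjusted p = 0.126, edgeR), and with FPKM. The other paternally expressed genes of the cluster were counted rarely: Rtl1, a retrotransposon-derived gene of the placenta, had 12 and 27 counts at day 2, against 2 and 3 counts at day 1 (adjusted p = 0.0186, edgeR). Dio3, the deiodinase that inactivates thyroid hormone, had 56 and 107 counts at day 2, against 22 and 29 counts at day 1 (log2 fold change 1.81 ± 0.52; adjusted p = 0.0381, edgeR). In the same step Meg3 was at 0.31 ± 0.16, Rian at -0.51 ± 0.16 and Mirg at -0.11 ± 0.29, none of them called; the difference between the paternally and the maternally expressed genes was not tested.

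Peg3, a paternally expressed zinc finger protein, had the largest change of the 9. It had 297 and 303 CPM at day 0, 553 and 459.7 CPM at day 1, 2009.7 and 1669.6 CPM at day 2, 2715 and 2216 CPM at day 3, and 2493, 2421 and 2339.7 CPM in sorted libraries. Days 0, 1 and 2 followed each other without overlap, and sorted libraries lay between the 2 libraries of day 3. Peg3 rose at day 1 against day 0 by 0.75 ± 0.19 (SE; log2 fold change, adjusted p = 0.0228, edgeR) and again at day 2 against day 1 by 1.87 ± 0.19 (adjusted p = 0.000394, edgeR). The log2 fold change over the span, day 3 against day 0, was 3.04 ± 0.20 (adjusted p = 7.5e-06, edgeR). Day 3 against day 2 did not pass, at 0.42 ± 0.19 (adjusted p = 0.24, edgeR), and sorted cells differed from day 3 by -0.03 ± 0.15 (adjusted p = 0.964, edgeR). The call at day 1 was lost without library 1 of day 0, library 2 of day 0 or library 1 of day 1, where the log2 fold change was 0.74, 0.77 and 0.62 (adjusted p = 0.0807, 0.079 and 0.0953, edgeR).

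The neighbours of Peg3 did not all do the same. Zim1, a maternally expressed zinc finger gene, had 44.5 and 32.1 CPM at day 3, against 1.801 and 2.74 CPM at day 0 (log2 fold change 4.09 ± 0.41; adjusted p = 5.55e-05, edgeR). Usp29, paternally expressed and read outward from the same region as Peg3, had 2.23 and 2.50 CPM at day 3, against 2.45 and 3.13 CPM at day 0 (log2 fold change -0.23 ± 0.39; adjusted p = 0.643, edgeR). Usp29 was lower at day 1 than at day 0, by -1.66 ± 0.41 (adjusted p = 0.022, edgeR), in the step in which Peg3 rose.

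Grb10 encodes an adaptor that binds insulin and IGF1 receptors and restrains their signaling; it is expressed from the maternal copy in most tissues and from the paternal copy in neurons. It had 71.0 and 70.1 CPM at day 0, 136 and 123 CPM at day 1, 127.5 and 139.0 CPM at day 2, 40.9 and 61.9 CPM at day 3, and 27.6, 25.5 and 23.7 CPM in sorted libraries. Days 1 and 2 overlapped and were above all others, and the sorted libraries were below all others. Grb10 rose at day 1 against day 0 by 0.88 ± 0.20 on the log2 scale (SE; adjusted p = 0.0153, edgeR), and differed by 0.04 ± 0.20 at day 2 against day 1 (adjusted p = 0.9, edgeR). It then fell at day 3 against day 2 by -1.37 ± 0.20 (adjusted p = 0.0111, edgeR) and was lower in sorted cells than at day 3 by -1.0 ± 0.17 (adjusted p = 0.00782, edgeR). Day 3 against day 0 gave -0.45 ± 0.20 (adjusted p = 0.0824, edgeR). The call at day 3 against day 2 was lost without library 1 of day 2 (-1.42, adjusted p = 0.0557), library 2 of day 2 (-1.31, 0.111) or library 1 of day 3 (-1.10, 0.0844), and the call at day 1 without library 2 of day 0 (0.87, 0.0596), all from edgeR; with FPKM none of these 3 changes of Grb10 was called. Day 3 against day 0 was called without library 2 of day 3 (-0.78, adjusted p = 0.0121, edgeR) and with all 11 libraries in the fit (-0.46, adjusted p = 0.0495, edgeR). The sorted cells also had lower endoderm marker sums than day 3, as given above. There 4 of 12 naive pluripotency markers were lower, where 2.93% of all genes were, from low sums of 44.7 and 33.4 CPM at day 3. Of 15 neuron markers, 0 were called in that comparison. The part of other cell types in the level of Grb10 was not tested.

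Per length of transcript, in the deposited FPKM, the order of the 9 genes changed with time. At day 0 Rian stood first, with 386 ± 53.1 FPKM (SD, n = 2), followed by H19 at 91.6 ± 0.852 FPKM and Meg3 at 56.2 ± 28.0 FPKM, while Igf2 was at 11.2 ± 0.204 FPKM, within the range of the Grb10 libraries, and Dlk1 was last at 3.92 ± 2.20 FPKM. At day 3 H19 was first, with 436 ± 120.4 FPKM (SD, n = 2), then Rian at 257 ± 38.1 FPKM and Peg3 at 231 ± 41.6 FPKM, and Igf2 came after them at 87.0 ± 33.0 FPKM, overlapping Meg3. In sorted cells Rian, Peg3 and H19 had 254 ± 21.5, 219 ± 1.75 and 203 ± 33.4 FPKM (SD, n = 3), and Grb10 was last at 4.15 ± 0.156 FPKM. Libraries of the first and second gene did not overlap at day 0 and day 3, those of Rian and Peg3 overlapped at day 3, and those of Peg3 and H19 overlapped in sorted cells. Ranked among all 38197 genes by mean FPKM, Peg3 was 474th at day 3 and 5059th at day 0, Igf2 1473rd and 7576th, and Rian 406th and 307th. The FPKM of Meg3 in the day 0 libraries, 76.0 and 36.4, were farther apart than its CPM were.

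The genes whose log2 CPM was most like that of a member over the 11 libraries were named from 11223 candidates by Pearson r, as a description. For Peg3 they were Irs1 (r = 0.998), Cxcr4 (0.998) and Nsg2 (0.997). For H19 they were Slc25a30 (0.988), Rbp4 (0.974) and Ank (0.970), and for Igf2 they were Lxn (0.974), Plac1 (0.973) and Slc25a30 (0.967). Rian was most like Ttc37 (0.980), Gpd2 (0.979) and Ipo8 (0.979), and Grb10 most like Mboat1 (0.974), Mapk14 (0.968) and Lin28a (0.967). Meg3 was most like Neurod1 (0.945), Gltpd1 (0.941) and Grik3 (0.928). For Mirg, Dlk1 and Igf2r the highest r was 0.940 (Mcm3ap), 0.925 (Safb) and 0.954 (Fbxo6). Among the 9 genes themselves, Peg3 and Rian had the lowest r, -0.938. The libraries share days and depth, so high values of r are common.

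Other imprinted genes were counted from lists of maternally and paternally expressed ones. At day 3 against day 0, 12 of 22 paternally expressed genes passed as higher and 5 as lower, with a median log2 fold change of 1.15 beside 0.02 for all genes, of which 27.6% were higher and 26.3% lower. Of the 18 maternally expressed ones, 6 passed as higher and 3 as lower, shares near those of all genes, with a median of 0.18. Plagl1, a zinc finger protein that regulates other imprinted genes, averaged 133.9 ± 26.5 CPM at day 3 and 13.1 ± 0.470 CPM at day 0 (SD, n = 2 each; log2 fold change 3.36 ± 0.19), and most of this came at day 2, which differed from day 1 by 3.38 ± 0.19. Nnat, Ndn and Peg12, which are expressed in the nervous system, were higher at day 3 than at day 0 by 3.57 ± 0.25, 2.88 ± 0.17 and 3.14 ± 0.21 on the log2 scale. Mest was higher by 0.91 ± 0.20 and Snrpn lower by -0.80 ± 0.16, while Peg10 did not pass, at 0.27 ± 0.25 (adjusted p = 0.382, edgeR). Of the maternally expressed genes, Osbpl5 was higher by 3.52 ± 0.40, and Cdkn1c, an inhibitor of the cell cycle, had 133.0 ± 16.8 CPM at day 3 and 52.5 ± 23.6 CPM at day 0 (SD, n = 2 each; log2 fold change 1.35 ± 0.29). Cdkn1c was lower at day 1 than at day 0 (-1.11 ± 0.29) and higher at day 2 than at day 1 (1.77 ± 0.30). In sorted cells against day 3, edgeR called 0.435% of all genes higher and 2.93% lower. There none of the 18 maternally expressed genes was called, close to these shares. Of the 22 paternally expressed ones, Peg12 was higher and Sfmbt2, Gab1 and Slc38a4 were lower. The difference between the paternal and maternal lists was not tested.

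**Figure D5:**
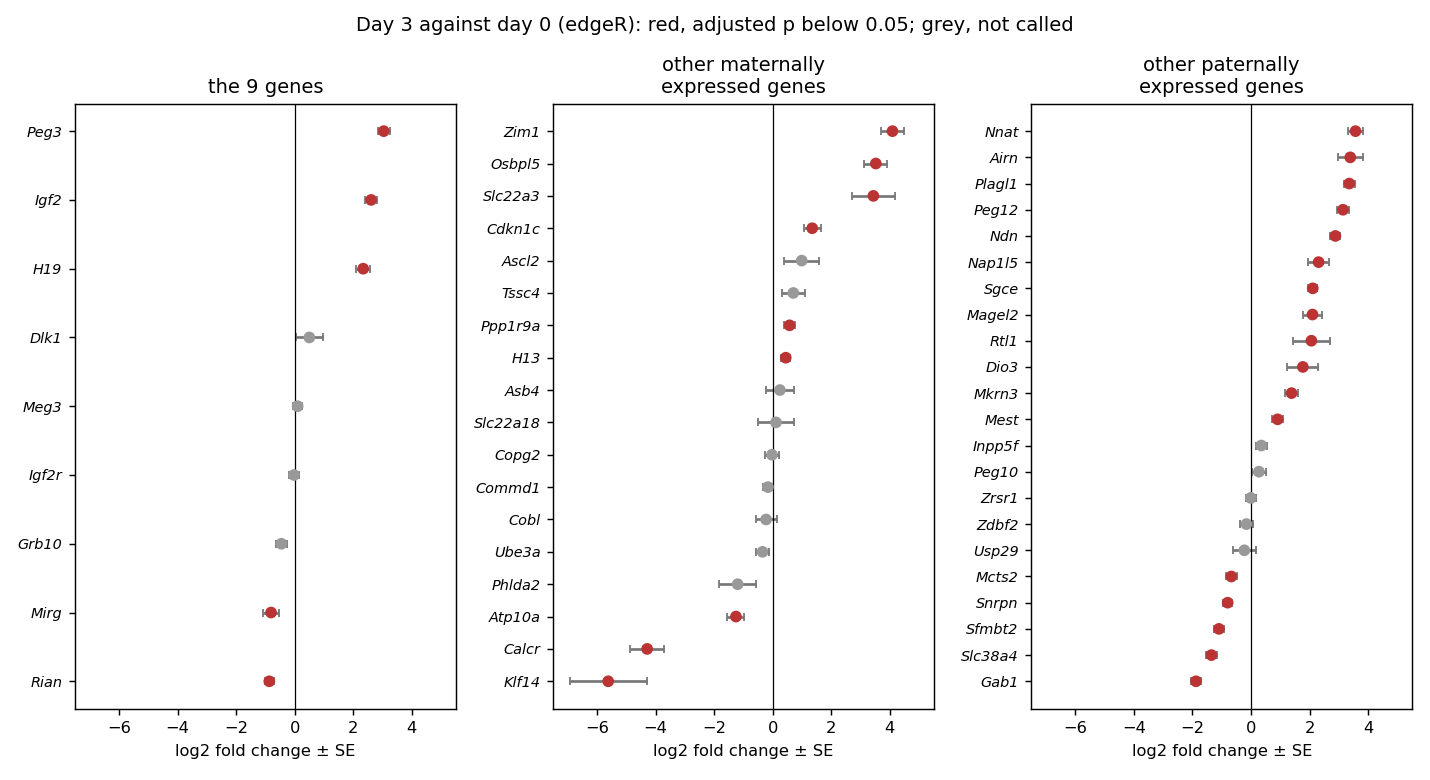
Log2 fold change with its standard error (edgeR) at day 3 against day 0 for the 9 genes, for 18 other maternally and for 22 other paternally expressed imprinted genes; red points passed an adjusted p of 0.05 and grey points did not. Red points to the right number 3, 6 and 12 in the panels, and red points to the left 2, 3 and 5.

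Factors that keep imprints or that set or erase DNA methylation mostly fell over the same days. Of 17 tested, 12 were lower and 1 higher at day 3 than at day 0, with a median log2 fold change of -0.89 beside 0.02 for all genes, of which 26.3% were lower and 27.6% higher. All 12 naive pluripotency markers were lower in the same comparison, with a median of -6.47. Dppa3 is in both lists, so these counts are not separate. The part of naive cells in the values of the 17 factors was not tested. The DNA methyltransferase Dnmt3b averaged 49.4 ± 2.94 CPM at day 3 and 622 ± 134 CPM at day 0 (SD, n = 2 each; log2 fold change -3.65 ± 0.19), and its cofactor Dnmt3l was lower by -4.92 ± 0.26. The demethylating enzyme Tet1 was lower by -3.37 ± 0.26 and Tet3, of the same family, higher by 2.75 ± 0.23. Zfp57, which binds methylated imprinting control regions, was lower by -1.54 ± 0.24 and its partner Trim28 by -0.89 ± 0.24. Dnmt1, which copies methylation at replication, did not pass (-0.19 ± 0.17; adjusted p = 0.372, edgeR). Methylation itself was not measured.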

How the data were processed

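Polyadenylated RNA of 11 libraries was sequenced (ZymoPure kit, Illumina TruSeq, per the labels). The submitters' processing notes list limma, Cufflinks 2.1.1, HTSeq 0.6.1 and TopHat2 2.0.4 with no roles, and builds GRCm38 and mm10. No source used here gives the annotation or the counting strand. The authors deposited a table of estimated counts (38093 genes with whole values, 104 with fractions, rounded here), a table of log2 (voom) values, which recomputing from the counts matched to within 4.97e-14, and a table of FPKM values.

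Counts were tested with edgeR 4.0.16 in R 4.3.3 (quasi-likelihood F test, TMM, filterByExpr with a minimum count of 10, Benjamini-Hochberg over all genes tested, threshold 0.05). Days 0 to 3 were fitted on their 8 libraries and sorted cells against day 3 on all 11. The SE is the size of the log2 fold change over the square root of F. CPM were scaled by TMM over 11 libraries. A count of 3 is the floor of a library (counting error only). The tests were checked on simulated data.

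The 9 genes and the lists (other maternally and paternally expressed imprinted genes, IGF system, imprint maintenance, and markers of extraembryonic endoderm, mesoderm, naive pluripotency, neural progenitors, neurons and trophoblast) were chosen with earlier results of these data known. Beside the 9 genes, the text names up to 4 called genes of a list with the smallest adjusted p in a comparison, a panel of imprinted and IGF genes, and the 3 genes most like each member among those of at least 5 CPM in a group (r of log2 CPM, prior count 2). Neighbours of the members and defining endoderm markers were named by locus or role. Alternatives were RLE size factors, no filter, DESeq2 1.42.0, the replicate number as a block, other libraries in the fit, limma 3.58.1 on the deposited log2 values and on log2(FPKM + 1) and log2(FPKM + 0.1), leaving out each library, and, added after seeing the data, a GC offset (lowess, span 0.3).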

Additional observations from a re-analysis of the deposited data

How the results depend on the processing

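For the 9 genes over the 6 comparisons, 872 of 999 single values under an alternative kept their direction and side of the threshold, 57 lost the call, 23 gained it and 47 changed sign. No value that changed sign was called in either fit. Limits are the 2 libraries a day and low counts of Dlk1 and Mirg. Leaving out 1 library assumes that the lone library varies like the others. The FPKM settings made fewer calls for all genes too, and the cause was not tested. The number of all genes called also changed with the library left out, so the counts of members below moved together with those of the whole table.

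The number called at day 1 against day 0 (5) was 3 with each FPKM setting. At day 2 against day 1 (2) it was 4 without a filter on low counts and 1 with each FPKM setting. At day 3 against day 2 (1) it was 0 with each FPKM setting. Any change over days 0 to 3 (7) gave 4 with log2(FPKM + 1) or log2(FPKM + 0.1) and 3 with FPKM without a filter. In sorted cells against day 3 (1) it was 3 with DESeq2 or without a filter, which added H19 and Igf2, and 0 with FPKM without a filter. With log2(FPKM + 1) and log2(FPKM + 0.1) it stayed at 1, but the gene differed. There limma called H19 lower (adjusted p = 0.0446 and 0.0376) and did not call Grb10 (adjusted p = 0.109 and 0.0869). Leaving out 1 library gave 2 to 6, 1 to 3, 0 to 1, 4 to 5 (day 3 against day 0), 5 to 8 (any change) and 1 to 2 (sorted cells). The lowest were without library 2 of day 0 (2), library 1 of day 1 or library 2 of day 2 (1), and either library of day 2 or library 1 of day 3 (0); without library 2 of day 3 sorted cells had 2, and without library 1 of day 0 or of day 1 the first step had 3. With every library kept, all genes called at day 3 against day 2 numbered 684 in the reported fit. Under the alternatives they numbered from 88 with log2(FPKM + 0.1) to 2425 with the GC offset. Fits without library 1 of day 2, library 2 of day 2 or library 1 of day 3 called fewer of all genes than any of these.

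The replicate numbers did not pair the libraries: correlations of deviations between days ran from -0.449 to 0.184. With the replicate number as a block the counts were 4, 2, 1, 5, 7 and 0; Meg3 at day 1 (adjusted p = 0.0667) and Grb10 in sorted cells (adjusted p = 0.0605) were not called by edgeR, and Mirg and Peg3 in sorted cells were at 0.010 and 0.0023.

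Changes of sign, in log2 units, were these. Igf2r was at 0.091 at day 1 and 0.12 at day 3 against day 0 with the deposited log2 values, and at 0.14, 0.15 and 0.14 and at 0.18, 0.19 and 0.18 with the 3 FPKM settings. At day 3 against day 2 Rian was at 0.025 with the deposited log2 values and Mirg at 0.051, 0.053 and 0.051 with FPKM. In sorted cells Peg3 was at 0.0020 with RLE factors or DESeq2, Rian at -0.028 with the deposited log2 values, -0.017 with each FPKM setting and -0.16 with the GC offset, and Meg3 at -0.25 with FPKM. Leaving out libraries, Igf2r spanned -0.13 to 0.026 (day 1 against day 0) and -0.20 to 0.15 (day 3 against day 0), where Meg3 spanned -0.00023 to 0.21 and Dlk1 -0.062 to 0.92. At day 2 against day 1 Mirg spanned -0.41 to 0.29 and Grb10 -0.024 to 0.12, and at day 3 against day 2 Rian spanned -0.16 to 0.13 and Mirg -0.20 to 0.11. In sorted cells Rian spanned -0.12 to 0.17, Meg3 -0.011 to 0.20, Dlk1 -0.088 to 0.89, Peg3 -0.17 to 0.12 and Mirg -0.24 to 0.061.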

Other observations

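Values of further genes beside the members are these. Around Grb10, Cobl, a regulator of actin and one of the 18 maternally expressed genes counted above, had 37.3 and 28.9 CPM at day 1, against 73.1 and 178 CPM at day 0, and was lower there (log2 fold change -1.93 ± 0.37; adjusted p = 0.00795, edgeR) in the step in which Grb10 rose. Ddc, the decarboxylase of dopamine and serotonin synthesis on its other side, had 17.6 and 20.7 CPM at day 1, against 7.72 and 11.1 CPM at day 0 (log2 fold change 1.03 ± 0.24; adjusted p = 0.0172, edgeR). Begain, a neighbour of Dlk1, had 5.66 and 2.76 CPM at day 3, against 0.646 and 0.514 CPM at day 0 (log2 fold change 2.85 ± 0.47; adjusted p = 0.000922, edgeR). Ins2, the insulin gene next to Igf2, had 0 to 3 counts in every library.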
